A study of Mus musculus with 18 samples.

Results

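Cells that are short of oxygen switch on a shared set of genes, and 10 of these hypoxia-inducible genes are described here across 4 groups of mouse mammary tumours. They are Egln3, Slc2a1, Car9, Pgk1, Ldha, Pdk1, Bnip3, Vegfa, Adm and Ndrg1. They were chosen by gene symbol, with earlier results of these data known. Each was measured by 1 array feature, and all 10 of 10 were found among 16887 genes with a symbol on an array of 22575 features. The title of the study names joint action of Wnt-1 and FGF receptor signalling in tumours of the mammary gland. RNA of each primary tumour was labelled with Cy5 and hybridised together with Cy3-labelled whole-mouse total RNA, a common reference. The groups were tumours labelled Wnt1 (n = 6 arrays), Wnt1_iFGFR1 (n = 4), Wnt1_iFGFR2 (n = 4) and Wnt1_iR2 (n = 4), called Wnt1, iFGFR1, iFGFR2 and iR2 here, so the Wnt1 label is common to all of them. The sample titles carry FVB, a mouse strain, and MMTV, a viral promoter active in mammary epithelium, and the labels do not spell out iFGFR1, iFGFR2 or iR2. Neither the age of the mice, nor any treatment that switches a receptor on, nor whether the arrays of a group came from separate animals is stated in the labels. The p-values therefore measure the spread between these arrays, which may be technical.

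When oxygen is plentiful, prolyl hydroxylases of the Egln family mark the alpha subunits of hypoxia-inducible factor (HIF), the Vhl protein binds the marked subunits, and they are destroyed. When oxygen is scarce the alpha subunits, Hif1a and Epas1, escape, pair with Arnt and bind short DNA elements near their target genes. Their targets raise glucose uptake and glycolysis, keep pyruvate out of mitochondria, export acid and call in blood vessels, and in solid tumours they are commonly high around poorly perfused areas.

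Every value is a log2 ratio of tumour over reference, so a difference of 1 between groups is a factor of 2. The direction follows the dyes, and the table states neither direction nor log base. Ratios compare a gene between tumours but not 1 gene with another, since the reference pool differs for each gene. Read that way, the mean over the 18 arrays was 3.54 for Ehf, a transcription factor of mammary luminal cells, and -4.69 for Ckm, a muscle enzyme. The mean ratio of 8 luminal markers was above 0 in every array (lowest 1.41, highest 3.15), and that of 9 fibroblast markers was below 0 in every array. Arrays correlated with the mean of the rest of their group at 0.805 to 0.974, and no array was left out.

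The core of a HIF binding element is the letters ACGTG or GCGTG. The 250 bases before each annotated transcript start (RefSeq, build GRCm38.p6) were searched for both words on both strands. Of the 10 genes, 9 had such a window, and each of these 9 held at least 1 match in at least 1 of its windows (10 of 12 windows). Of all 27025 genes with a window, 41.5% held a match, and of all 32851 windows 38.6% did, so such matches were common. CACGTG reads as ACGTG on both strands and is also the word called an E-box. A match is a string of letters and does not show binding. The stretches below are from the 5 genes with the largest differences between iFGFR1 and Wnt1, and were picked by the size of that difference. Each is read 5′ to 3′ along the gene's own strand, runs from 15 bases before the first match to 15 bases after the last (for Car9, to the transcript start, which comes sooner), and has the matches in capitals.
Egln3 (chr12:54204084-54204118, minus strand): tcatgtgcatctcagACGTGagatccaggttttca
Adm (chr7:110627552-110627622, plus strand): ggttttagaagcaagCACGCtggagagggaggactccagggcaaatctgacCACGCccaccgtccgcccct
Bnip3 (chr7:138909522-138909638, minus strand): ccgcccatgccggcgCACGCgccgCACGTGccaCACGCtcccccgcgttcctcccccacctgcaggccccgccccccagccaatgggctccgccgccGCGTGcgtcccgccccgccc
Slc2a1 (chr4:119108669-119108728, plus strand): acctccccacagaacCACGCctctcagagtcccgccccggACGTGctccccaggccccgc
Car9 (chr4:43506993-43507025, plus strand): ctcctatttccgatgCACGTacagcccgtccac
The single match of Car9 began 18 bases before its transcript start and that of Egln3 229 bases before. Bnip3 held 5 matches, from 117 to 35 bases before the start, among them a CACGTG. Both matches of Adm were of the GCGTG word on the opposite strand, and Slc2a1 held 1 match of each word, 61 and 36 bases before the start.

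The hypoxia-inducible genes stood highest in the iFGFR1 tumours. The mean of each of the 10 genes was highest in iFGFR1. Against Wnt1, 8 of 10 were called higher and none lower at an adjusted p under 0.05 (limma, Benjamini-Hochberg over all genes), whereas 8.38% of all genes were called higher in that comparison. The 10 differences had a median of 1.38, against 0.02 over all genes tested. Since the genes were chosen with earlier results of these data known, their share of calls describes them and is no test of the list. In iFGFR2 and in iR2 none of the 10 was called against Wnt1, and none had an unadjusted p under 0.05 (limma). Of all 16887 genes, 3524 in iFGFR2 and 3944 in iR2 had an unadjusted p under 0.05 there. In bulk tumour RNA, more cells that express a gene and more of its RNA per cell cannot be told apart.

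**Figure D1:**
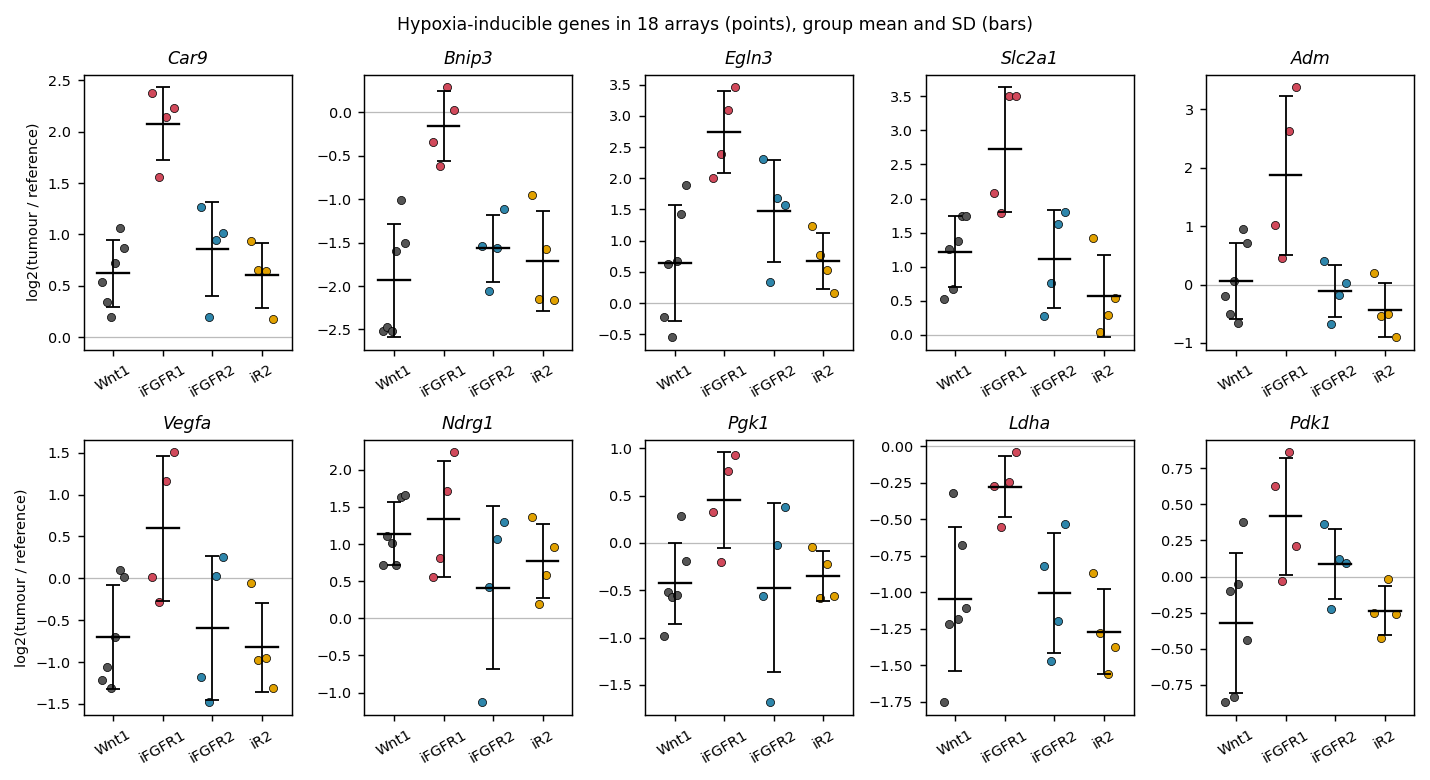
Log2 ratio of tumour over reference of each of the 10 genes (1 panel a gene, each with its own axis) in the 18 arrays, by group; points are arrays, the long line is the group mean and the bar its SD. For Car9, Bnip3, Egln3 and Slc2a1 all 4 iFGFR1 points lie above all 6 Wnt1 points, while for Ndrg1 the groups overlap.

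Egln3 is one of the prolyl hydroxylases that mark HIF, and is itself a HIF target. Its log2 ratio was 2.01, 2.38, 3.10 and 3.46 in the 4 iFGFR1 tumours. In the 6 Wnt1 tumours it ran from -0.55 to 1.89 with a median of 0.65. All 4 iFGFR1 tumours were above every Wnt1 tumour, and the mean was 2.10 higher (SE 0.43, 4.27-fold, limma adjusted p = 0.00321). In a fit with a covariate for the number that each sample title carries (title number), the difference was 1.33 and was still called (limma adjusted p = 0.0491). The iFGFR2 tumours had 2.31, 0.35, 1.68 and 1.57, so 3 of them lay in the upper part of the Wnt1 range or above it. Their mean was 0.84 above Wnt1 (SE 0.43), the largest difference of the 10 genes in iFGFR2, and was not called (limma adjusted p = 0.283). The iR2 tumours had 1.24, 0.77, 0.53 and 0.16, all within the Wnt1 range.

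Slc2a1 encodes GLUT1, the glucose transporter of the cell surface. It was 2.08, 1.79, 3.50 and 3.51 in the iFGFR1 tumours, and 0.52 to 1.75 with a median of 1.31 in Wnt1. The iFGFR1 tumours fell into a lower and a higher pair, and the lowest of them stood just above the highest Wnt1 tumour. The mean was 1.50 higher (SE 0.39, 2.84-fold, limma adjusted p = 0.0135). The call was lost when iFGFR1 replicate 3 or replicate 4, the higher pair, was left out (adjusted p = 0.0605 and 0.054). It was also lost with array weights (1.41, limma adjusted p = 0.0545) and with the title number as a covariate, where the difference was 0.78 (adjusted p = 0.184). In iFGFR2 the values were 0.27, 0.76, 1.63 and 1.80, which spans the Wnt1 range. The iR2 tumours had 1.42, 0.03, 0.29 and 0.53, and 2 of them were below every Wnt1 tumour. The iR2 mean lay 0.65 under Wnt1 (95% interval -1.46 to 0.17) and was not called.

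Car9 encodes carbonic anhydrase 9, an enzyme on the cell surface that helps tumour cells to export acid, and its promoter stretch is the shortest of those printed above. It was 2.38, 1.56, 2.15 and 2.23 in the iFGFR1 tumours, and 0.19 to 1.06 with a median of 0.63 in Wnt1. No iFGFR1 tumour overlapped any tumour of another group, since the highest of the rest was 1.27. The mean was 1.46 above Wnt1 (SE 0.23, 2.75-fold, limma adjusted p = 0.000399), the smallest adjusted p of the 10. Car9 also had the smallest standard error of the 10. The iFGFR2 tumours had 1.27, 0.20, 0.95 and 1.02 and the iR2 tumours 0.94, 0.65, 0.64 and 0.18. Both groups lay over the Wnt1 range except for 1 iFGFR2 tumour above it and 1 iR2 tumour just below it. Their differences from Wnt1 were 0.24 (95% interval -0.25 to 0.72) and -0.02 (-0.51 to 0.47), so a difference of the size seen in iFGFR1 lies outside both intervals.

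Bnip3 encodes a protein of the outer mitochondrial membrane that marks mitochondria for autophagy. It was -0.34, -0.62, 0.29 and 0.03 in the iFGFR1 tumours, and -2.52 to -1.005 with a median of -2.04 in Wnt1. All 4 iFGFR1 tumours were again above every tumour of the other 3 groups, where the highest was -0.96. The mean was 1.78 above Wnt1 (SE 0.32, 3.43-fold, limma adjusted p = 0.000987). In iFGFR2 it was -1.54, -2.06, -1.56 and -1.11, all within the Wnt1 range. The iR2 tumours had -0.96, -2.15, -1.57 and -2.17, the first just above that range.

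Pgk1 and Ldha encode glycolytic enzymes: phosphoglycerate kinase, which yields ATP, and lactate dehydrogenase A, which turns pyruvate into lactate. Ldha was -0.27, -0.55, -0.25 and -0.04 in the iFGFR1 tumours, against -1.75 to -0.32 with a median of -1.15 in Wnt1. All but 1 iFGFR1 tumour exceeded every Wnt1 tumour, and the mean was 0.77 higher (SE 0.24, 1.70-fold, limma adjusted p = 0.0393). Ldha had the narrowest iFGFR1 spread of the 10 genes (SD 0.209). Its call was lost without Wnt1 replicate 1, 2, 4 or 6, or without iFGFR1 replicate 1, 3 or 4 (adjusted p from 0.0682 to 0.100). Pgk1 was 0.33, -0.21, 0.76 and 0.93 in the iFGFR1 tumours and -0.99 to 0.28 with a median of -0.54 in Wnt1. Again 3 of 4 iFGFR1 tumours exceeded every Wnt1 tumour. The mean difference was 0.88 (SE 0.32), which was not called (limma adjusted p = 0.073). It was called without Wnt1 replicate 5, iFGFR1 replicate 2 or iFGFR2 replicate 2, which held the highest Wnt1 value and the lowest values of their groups (adjusted p = 0.0475, 0.0335 and 0.0273). In iFGFR2 and iR2 the mean of either enzyme lay within 0.23 of Wnt1.

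Pdk1 encodes a kinase that shuts off pyruvate dehydrogenase and so keeps pyruvate out of the mitochondrial cycle. It was 0.63, -0.03, 0.86 and 0.21 in the iFGFR1 tumours and -0.87 to 0.38 with a median of -0.27 in Wnt1. The groups overlapped, with 2 iFGFR1 tumours above every Wnt1 tumour. The mean was 0.74 higher (SE 0.24, 1.67-fold, limma adjusted p = 0.0404), the smallest of the 8 differences called. This call was lost without any 1 of Wnt1 replicates 1, 3 and 6, iFGFR1 replicates 1 and 3, and iR2 replicates 1 and 4 (adjusted p from 0.0507 to 0.140).

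Vegfa is the growth factor that draws in and maintains blood vessels. It was 0.01, -0.28, 1.16 and 1.50 in the iFGFR1 tumours and -1.31 to 0.10 with a median of -0.88 in Wnt1. The higher pair of iFGFR1 tumours stood above all Wnt1 tumours and the lower pair overlapped the upper part of their range. The mean was 1.29 higher (SE 0.41, 2.45-fold, limma adjusted p = 0.0376). Without Wnt1 replicate 1, 2, 3 or 4, or iFGFR1 replicate 3 or 4, the adjusted p rose above the threshold (0.058 to 0.134). With the title number as a covariate the difference was 0.47 (limma adjusted p = 0.445), and the call was also lost with array weights (adjusted p = 0.124) and with arrays scaled to 1 median absolute deviation (adjusted p = 0.0535). The iFGFR2 tumours had -1.18, -1.48, 0.03 and 0.26, also a lower and a higher pair, and the iR2 tumours had -0.06, -0.97, -0.95 and -1.31.

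Adm encodes the precursor of adrenomedullin, a peptide that widens vessels and acts on endothelium. It had the widest range over the 18 arrays, 4.28. The iFGFR1 tumours had 1.03, 0.46, 2.62 and 3.38, and the Wnt1 tumours -0.66 to 0.95 with a median of -0.07. All but 1 iFGFR1 tumour exceeded every Wnt1 tumour, and the 4 tumours differed among themselves more than in any other gene of the 10 (SD 1.36). The mean was 1.81 higher (SE 0.45, 3.51-fold, limma adjusted p = 0.0104). With the title number as a covariate the difference was 1.18 and the call was lost (limma adjusted p = 0.121). In iFGFR2 the tumours had 0.40, -0.67, -0.17 and 0.03, and the iR2 tumours 0.20, -0.55, -0.50 and -0.90. Every iFGFR2 tumour, and every iR2 tumour, was below the lowest iFGFR1 tumour.

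Ndrg1 encodes a protein induced by hypoxia and other stresses in many cell types. Its groups overlapped. It was 0.56, 0.81, 1.72 and 2.23 in the iFGFR1 tumours and 0.71 to 1.65 with a median of 1.06 in Wnt1, so iFGFR1 held values both below and above the whole Wnt1 range. The mean difference was 0.19 (SE 0.40, 95% interval -0.65 to 1.03, limma adjusted p = 0.792). The iFGFR2 tumours had -1.13, 0.42, 1.07 and 1.29, the widest spread of Ndrg1 in any group (SD 1.09). The iR2 tumours had 1.36, 0.20, 0.58 and 0.96. The difference from Wnt1 was -0.73 (SE 0.40) in iFGFR2 and -0.36 (SE 0.40) in iR2, and neither was called. With the title number as a covariate Ndrg1 was called lower in iFGFR2 than in Wnt1 (-1.37, limma adjusted p = 0.0372) and in iR2 than in iFGFR1 (-2.04, adjusted p = 0.0484). In the latter comparison number and group cannot be told apart, since all iR2 numbers lie above the others.

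**Figure D2:**
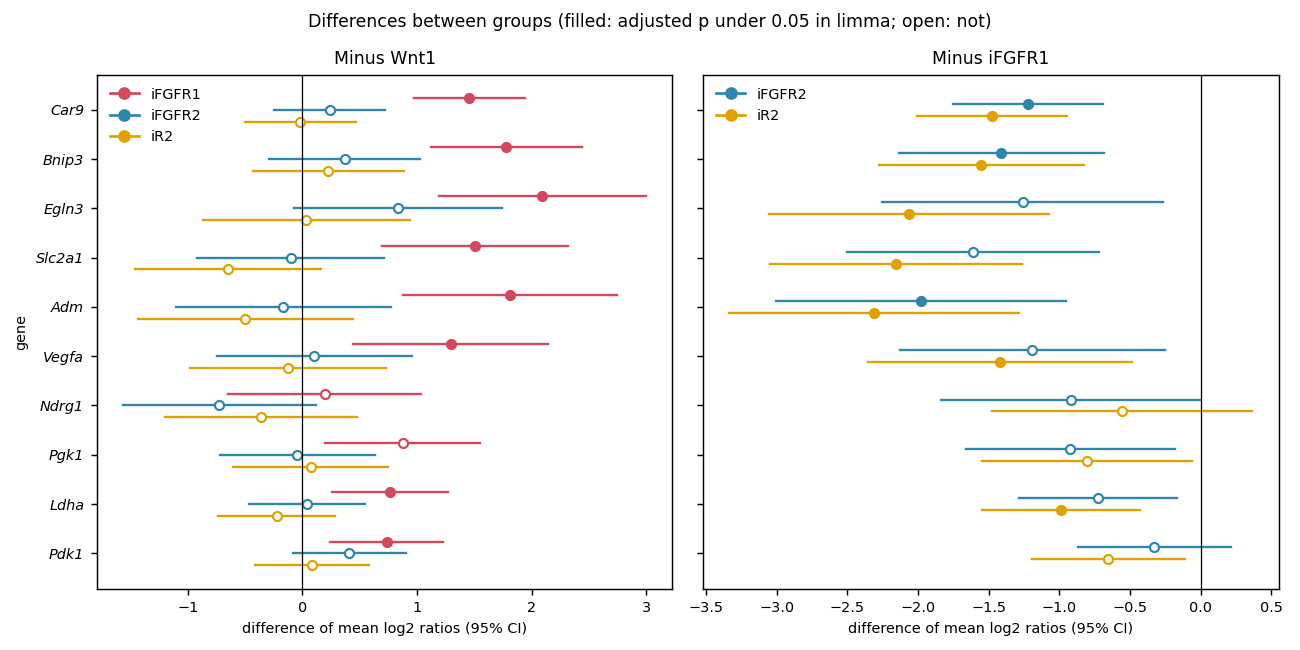
Difference of group means on the log2 scale with its 95% confidence interval for each of the 10 genes, each receptor group minus Wnt1 on the left, iFGFR2 and iR2 minus iFGFR1 on the right; filled points passed an adjusted p of 0.05 in limma. On the left the filled points are 8 of iFGFR1, and on the right 3 of iFGFR2 and 7 of iR2, all below 0.

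In iFGFR1 against Wnt1, 4 of the 10 genes (Egln3, Slc2a1, Car9 and Bnip3) had every iFGFR1 tumour above every Wnt1 tumour, and 4.88% of all genes did. Against Wnt1, the differences in iFGFR2 ran from -0.73 for Ndrg1 to 0.84 for Egln3 with a median of 0.07, and 3.43% of all genes were called in either direction there. In iR2 they ran from -0.65 for Slc2a1 to 0.23 for Bnip3 with a median of -0.07, and 7.10% of all genes were called. A call in 1 group and none in another does not show that the groups differ, so the receptor groups were also compared with each other. These comparisons share the iFGFR1 tumours with the one above and are not independent of it.

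All 10 genes had a lower mean in iFGFR2 than in iFGFR1, and 3 were called lower, where 0.924% of all genes were. Adm was 1.98 lower (difference -1.98, SE 0.49, limma adjusted p = 0.0398), Bnip3 differed by -1.41 (SE 0.35, adjusted p = 0.0379) and Car9 by -1.22 (SE 0.26, adjusted p = 0.014). Slc2a1, at -1.61 (SE 0.43), missed the threshold (limma adjusted p = 0.0544), and was called in 5 of 28 alternatives (adjusted p from 0.0197 to 0.0478). These were the variance filter, the title number as a covariate, and the fits without Wnt1 replicate 3, iFGFR1 replicate 1 or iFGFR1 replicate 2. For 3 genes, Car9, Bnip3 and Adm, every iFGFR2 tumour was below every iFGFR1 tumour, as was so for 2.81% of all genes. The calls of Bnip3 and Adm were each lost in 11 of 28 alternatives, and that of Car9 in 2 of 28 (array weights, and a fit of the compared arrays alone). Bnip3 lost its call without iFGFR1 replicate 1, 3 or 4, iFGFR2 replicate 1, 2 or 3, or iR2 replicate 3 (limma adjusted p from 0.0508 to 0.112). Adm lost it without iFGFR1 replicate 3 or 4, iFGFR2 replicate 2, 3 or 4, or iR2 replicate 2 or 3 (limma adjusted p from 0.0535 to 0.120).

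All 10 also had a lower mean in iR2 than in iFGFR1, with a median difference of -1.45, and 7 were called lower, where 6.84% of all genes were. The largest difference was that of Adm, -2.31 (SE 0.49, limma adjusted p = 0.00483). Slc2a1 differed by -2.15 (SE 0.43, adjusted p = 0.00295), Egln3 by -2.06 (SE 0.48, adjusted p = 0.00804), Bnip3 by -1.55 (SE 0.35, adjusted p = 0.00665) and Car9 by -1.48 (SE 0.26, adjusted p = 0.00111). These 5 calls held in each of 28 alternatives. Vegfa (-1.42, limma adjusted p = 0.0442) and Ldha (-0.99, adjusted p = 0.0203) were lost in 10 and in 5 of them. Among the 28 is the fit with the title number, which cannot tell number from group here, since all iR2 numbers lie above the others. Vegfa was lost without Wnt1 replicate 2 or 4, iFGFR1 replicate 3 or 4, or iR2 replicate 2, 3 or 4 (limma adjusted p from 0.0501 to 0.132), and Ldha without iFGFR1 replicate 4 or iR2 replicate 2, 3 or 4 (adjusted p from 0.0514 to 0.0679). For 6 genes every iR2 tumour was below every iFGFR1 tumour, as was so for 13.0% of all genes. Between iR2 and iFGFR2 none of the 10 was called and none had an unadjusted p under 0.05 (limma), as 2600 of 16887 genes did. The median difference was -0.26 with the widest interval that of Adm, -1.36 to 0.69, and 1.34% of all genes were called in either direction. In an F test over the 4 groups 6 of 10 passed, namely Car9, Bnip3, Slc2a1, Egln3, Adm and Ldha, and 19.6% of all genes did.

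The 10 genes also moved together from tumour to tumour inside the groups. After the group means were taken out, all 45 pairs of genes were positively correlated over the 18 arrays, with a median Pearson correlation of 0.60 and a median Spearman correlation of 0.61. The closest pair was Slc2a1 and Vegfa (0.92), followed by Slc2a1 with Ndrg1 (0.87) and Vegfa with Pgk1 (0.87). The weakest were Ndrg1 with Pdk1 (0.05) and Ndrg1 with Car9 (0.07). Ndrg1, which was not called in any comparison of the groups, thus correlated with Slc2a1 and Vegfa between tumours of a group. Without the pair of arrays farthest from the median level, iFGFR1 replicates 3 and 4, the median was 0.60 and 44 of 45 pairs were positive. In the 6 Wnt1 tumours alone, 43 of 45 pairs were positive, with a median of 0.75. The values of an array share its labelling and its hybridisation, and these correlations carry no test. Each of the 10 correlated with the mean level of the rest of the 10 at 0.48 (Ldha) to 0.93 (Vegfa), group means taken out. For comparison with these values, the correlation of 16877 other genes with the mean level of the 10 had a median of -0.01. Pairs of other genes were not examined.

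**Figure D3:**
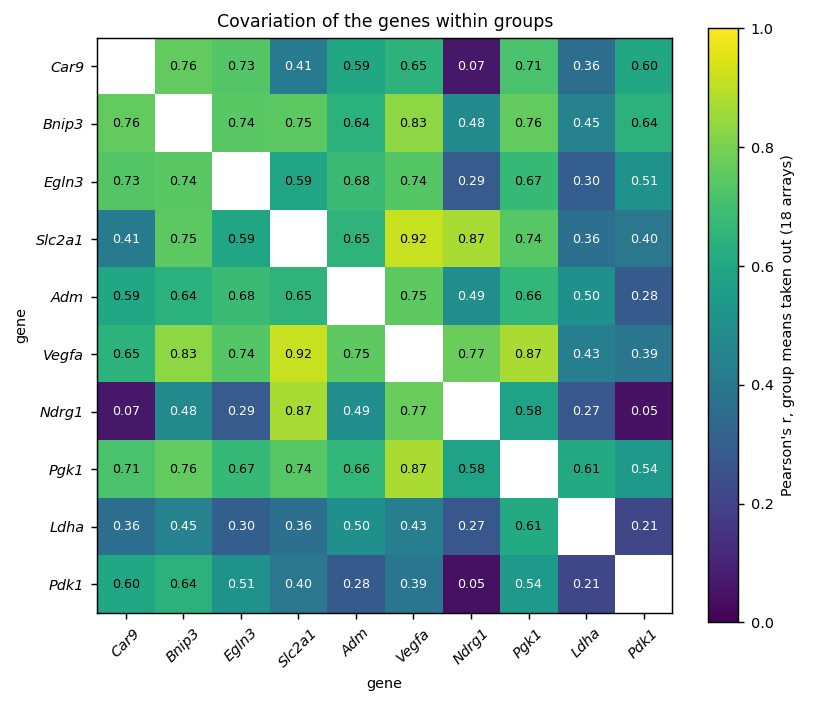
Pearson correlation of each pair of the 10 genes over 18 arrays after the mean of each group was taken out. All 45 pairs are above 0; Slc2a1 and Vegfa have 0.92, and the pairs of Ndrg1 with Car9 and Pdk1 have the lowest values.

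Tumours of 1 group therefore stood at different levels. Within iFGFR1, replicates 3 and 4 were the highest arrays of the study, with all 10 and 9 of the 10 genes above every Wnt1 tumour. Replicate 1 had 8 such genes, and replicate 2, with 4, was the lowest iFGFR1 array for 8 of the 10. Within Wnt1, replicate 5 was highest for 6 genes and its mean over the 10 genes, 0.59, was above the 0.53 of iFGFR1 replicate 2. Within iR2, replicate 1 was highest for 9 genes, at a mean of 0.30 against -0.47 to -0.28 in the rest. Within iFGFR2, replicate 2 was lowest for 8 genes. The levels moved with the number in the sample title, whose meaning the labels do not give. In Wnt1, iFGFR1 and iFGFR2 the pair of arrays with the highest title numbers was also the pair with the highest mean over the 10 genes. These pairs had 0.36 and 0.59 in Wnt1 (-0.60 to -0.13 in the rest), 1.59 and 1.74 in iFGFR1 (0.53 and 0.84) and 0.25 and 0.48 in iFGFR2 (-0.59 and -0.06). In iR2 the array with the lowest number had the highest mean. Adjusted for the title number, only 3 calls were left in iFGFR1 against Wnt1, those of Car9, Bnip3 and Egln3.

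The genes whose profiles were most like the mean of the 10 over all 18 arrays were Isg20 (Pearson correlation 0.92), Ercc1 (0.90), Hbegf (0.89), Chac1 (0.87), Tpi1 (0.87), Tnnt2 (0.87), Aldoa (0.87) and Pfkp (0.87). With the group means taken out they were Slc16a3 (0.84), Ercc1 (0.81), Emilin1 (0.81), Aldoa (0.80), Isg20 (0.79), Chac2 (0.79), Pfkp (0.79) and Ubl5 (0.78). Tpi1, Aldoa and Pfkp are glycolytic enzymes and Slc16a3 exports lactate, so 4 of these 12 genes belong to the glycolysis list that follows. The rest are on none of the lists used here.

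Other enzymes and transporters of glycolysis followed the same order of groups in part. Of 16 measured, 6 were called higher and 1 lower in iFGFR1 against Wnt1, with a median difference of 0.57. Of all genes, 8.38% were called higher and 7.06% lower there. Hk1, a hexokinase that traps glucose in the cell, rose by 1.03 (SE 0.22, limma adjusted p = 0.00343). Pgam1, a phosphoglycerate mutase, rose by 1.08 (SE 0.23, adjusted p = 0.00384), and its 2 features gave 0.98 and 1.18. Pfkp, a phosphofructokinase, rose by 1.14 (SE 0.32, limma adjusted p = 0.0186). Pfkfb4, which sets the level of a regulator of phosphofructokinase and is itself known as a HIF target, was lower, at -0.79 (SE 0.19, limma adjusted p = 0.00989). In iFGFR2 against iFGFR1 none of the 16 was called, where 2.13% of all genes were called in either direction. The median difference of the 16 was -0.62, with 1 of 16 above 0. In iR2 against iFGFR1, 7 of the 16 were called lower and none higher, where 6.84% and 4.81% of all genes were. The lower ones were led by the pyruvate kinase gene Pkm (-1.31, limma adjusted p = 0.00619), the enolase gene Eno2 (-1.20, adjusted p = 0.0101), Pfkp (-1.35, adjusted p = 0.0148) and Hk1 (-0.91, adjusted p = 0.0164). Against Wnt1, iFGFR2 had 1 of 16 higher, the aldolase gene Aldoc (1.12, limma adjusted p = 0.0497), and 1 lower, Pfkfb4 (-0.83, adjusted p = 0.027). Of all genes, 1.97% were called higher and 1.46% lower there. In iR2 none of the 16 was called in either direction, where 7.10% of all genes were.

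A further list of 36 measured HIF targets gave 7 called higher and 1 lower in iFGFR1 against Wnt1, a median difference of 0.35. Of all genes, 8.38% were called higher and 7.06% lower there. Pgm1, a phosphoglucomutase gene, differed by 1.23 (SE 0.21, limma adjusted p = 0.000762). Ero1a, an oxidase that forms disulfide bonds in the endoplasmic reticulum, differed by 2.06 (SE 0.42, adjusted p = 0.00282). Stc2, the secreted glycoprotein stanniocalcin 2, differed by 1.45 (SE 0.33, limma adjusted p = 0.00622). The member that fell was Edn1, the vessel-constricting peptide endothelin 1, at -1.41 (SE 0.39, limma adjusted p = 0.0183), opposite to the vessel-widening Adm. Hilpda, a lipid droplet protein, rose by 0.85 (SE 0.23, limma adjusted p = 0.0154), and in iR2 it was 1.26 below iFGFR1 (difference -1.26, SE 0.25, adjusted p = 0.00289). In that comparison 6 of the 36 targets were lower and 1, Edn1, was higher (1.48, limma adjusted p = 0.0285). Of all genes, 6.84% were called lower and 4.81% higher there. Stc2 (-1.74, limma adjusted p = 0.00422), the cytokine gene Mif (-1.44, adjusted p = 0.00958) and Pgm1 (-0.96, adjusted p = 0.0112) followed Hilpda among the lower ones, and Stc2 was also lower in iFGFR2 than in iFGFR1 (-1.44, adjusted p = 0.0428). The list did not move as 1 block, since 28 of 36 were not called, among them Ddit4 (0.20), Car12 (0.19) and Bnip3l (0.52). In iR2 against Wnt1, 2 targets were higher, Angptl4, an inhibitor of lipoprotein lipase (1.24, limma adjusted p = 0.00962), and Rora, a nuclear receptor (1.15, adjusted p = 0.0482). In iFGFR2 against Wnt1, 1 was lower, P4ha2, a subunit of the collagen prolyl hydroxylase (-1.25, limma adjusted p = 0.0454).

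**Figure D4:**
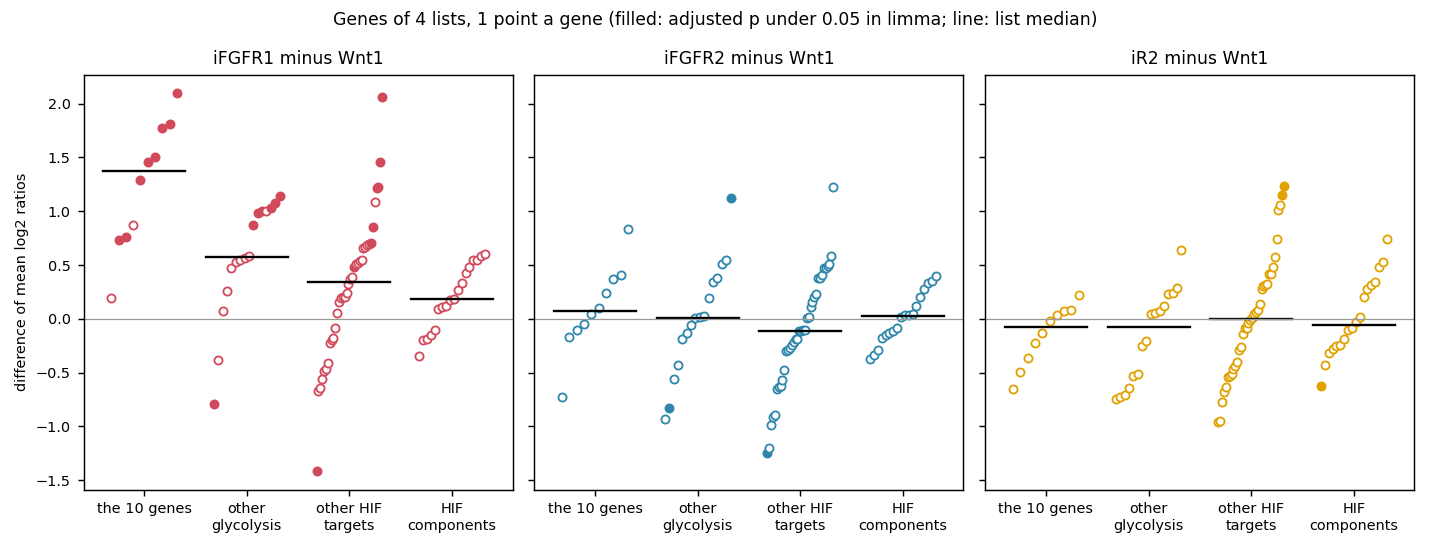
Difference from Wnt1 on the log2 scale for the 10 genes, 16 other glycolysis genes, 36 other HIF targets and 18 HIF pathway components in iFGFR1, iFGFR2 and iR2; each point is a gene, filled where its adjusted p in limma was under 0.05, and the line is the list median. In iFGFR1 the medians are 1.38, 0.57, 0.35 and 0.18, and no HIF component is filled.

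The transcripts of the HIF pathway itself differed less. Of 18 measured components none was called in iFGFR1 against Wnt1 with limma, where 15.4% of all genes were called in either direction. Of the 18, 13 were above 0 with a median of 0.18. Hif1a differed by 0.48 (SE 0.24, limma adjusted p = 0.191), Epas1 by 0.09 (SE 0.27, adjusted p = 0.855) and their partner Arnt by 0.55 (SE 0.22, adjusted p = 0.104). Among the genes that switch HIF off, Egln1 differed by 0.55 (SE 0.19, limma adjusted p = 0.0571), Egln2 by 0.60 (SE 0.22, adjusted p = 0.0701) and Vhl by 0.59 (SE 0.26, adjusted p = 0.133). Hif1an, which blocks the activity of HIF, differed by 0.18 (limma adjusted p = 0.495), and its 2 features disagreed (-0.08 and 0.43). In iFGFR2 and iR2 against iFGFR1 none of the 18 was called, where 2.13% and 11.7% of all genes were. Only 3 and 2 of the 18 were above 0 there. Egln1 differed by -0.66 in iFGFR2 (limma adjusted p = 0.108) and -0.64 in iR2 (adjusted p = 0.0533). Hif1a differed by -0.57 (adjusted p = 0.294) and -0.14 (adjusted p = 0.791). In iR2 against Wnt1 Hif3a, an alpha subunit that can act as an inhibitor, was lower (-0.62, SE 0.16, limma adjusted p = 0.0263). HIF is regulated mainly as a protein, which these arrays do not measure.

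Relatives of the 10 genes were called in both directions. Of 26 measured paralogs, 4 were called higher and 4 lower in iFGFR1 against Wnt1, where 8.38% and 7.06% of all genes were. Their differences had a median of 0.31, with 18 of 26 above 0. Besides Pdk1, its relatives Pdk4 (1.83, SE 0.31, limma adjusted p = 0.000656) and Pdk3 (0.84, SE 0.27, adjusted p = 0.0417) rose. Of 6 genes of pyruvate dehydrogenase, their target, and its phosphatases, 3 were called higher, the subunits Pdha1 (1.22), Pdhb (0.94) and Dld (0.88). The subunits Dlat (0.10) and Pdhx (-0.40) and the phosphatase Pdp1 (0.37) were not called. In iR2 against Wnt1, where Pdk1 was not called, Pdha1 (1.02, limma adjusted p = 0.0178) and Dld (0.74, adjusted p = 0.0315) were higher as well. Unlike Slc2a1, Slc2a4, the insulin-responsive transporter GLUT4 of fat and muscle, fell by 1.52 (difference -1.52, SE 0.22, limma adjusted p = 0.000129). Unlike Vegfa, Vegfc, a growth factor of lymphatic vessels, fell (-1.64, SE 0.29, limma adjusted p = 0.000846). Ndrg2 (-1.36, adjusted p = 0.00485) and Pgk2, the phosphoglycerate kinase of testis (-1.70, adjusted p = 0.00536), also fell, and Ndrg4 rose (0.88, limma adjusted p = 0.0388).

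Car6, a secreted carbonic anhydrase, separated all receptor groups from Wnt1, which Car9 did not. It was higher by 3.65 in iFGFR1, 4.38 in iFGFR2 and 4.74 in iR2 (SE 0.62 each, limma adjusted p = 0.000694, 0.00146 and 0.000686). Every tumour of these 3 groups was above every Wnt1 tumour. The 3 comparisons share the Wnt1 tumours. Among paralogs called in other comparisons, Pdk4 was also higher in iR2 than in Wnt1 (1.29, limma adjusted p = 0.0183), Slc2a2 (-1.39, adjusted p = 0.028) and Car4 (-0.67, adjusted p = 0.0409) were lower in iR2, and Pgk2 was lower in iFGFR2 (-1.74, adjusted p = 0.0186). Against iFGFR1, Slc2a4 was higher in iFGFR2 (1.54) and in iR2 (1.36), Vegfc was higher in both (1.60 and 1.40) and Ndrg2 was higher in iR2 (1.43). In iR2 against iFGFR1, Slc2a2 (-2.29), Car4 (-1.04), the Vegfa relative Pgf (-1.03) and Pdk3 (-0.92) were lower, and Car4 was lower in iR2 than in iFGFR2 (-1.28).

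The genes that would receive the 2 secreted signals had a median difference of 0.01 in iFGFR1 against Wnt1, with 5 of 9 above 0. The median over all genes was 0.02. Of these 9 receptors and coreceptors of Vegfa and adrenomedullin, none was called higher and 2 lower, where 8.38% and 7.06% of all genes were. These were Ramp2, a partner protein of the adrenomedullin receptor (-1.001, SE 0.33, limma adjusted p = 0.0474), and Ackr3, a scavenging receptor (-0.999, SE 0.30, adjusted p = 0.0291). The main Vegfa receptors Kdr (0.03, SE 0.19) and Flt1 (-0.27, SE 0.21) and the adrenomedullin receptor Calcrl (0.06, SE 0.34) were not called.

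Markers of other cells and states were set beside these results. Of all genes, 8.38% were called higher and 7.06% lower in iFGFR1 against Wnt1. A few calls in a list therefore need not mean a shift of that cell type. None of 10 endothelial markers was called in iFGFR1 against Wnt1, and their mean ratio ran from -1.30 to -0.70 in iFGFR1 and from -1.78 to -0.54 in Wnt1. Of 6 neutrophil markers, 3 were higher in iFGFR1 (S100a8, S100a9 and Cxcr2), and their mean was -1.61 to -1.29 in iFGFR1 against -2.69 to -2.10 in Wnt1, -2.59 to -2.38 in iFGFR2 and -3.14 to -2.79 in iR2. The mean of the neutrophil list thus had iFGFR1 above every other tumour, as Car9 and Bnip3 did. All 6 markers had a higher mean in iFGFR1 than in Wnt1, but to unequal degrees. The difference was largest for S100a8 (-3.034 against -5.595) and close to nil for Elane (-0.32 against -0.334). Of 9 fibroblast markers, 6 were lower, with a mean of -3.70 to -2.68 in iFGFR1 against -2.42 to -1.04 in Wnt1. The iFGFR2 arrays, at -3.02 to -2.51, also lay below every Wnt1 array, and iR2 had -2.58 to -2.41. Of 14 proliferation genes, 4 were higher, with 0.49 to 0.95 in iFGFR1 against -0.14 to 0.46 in Wnt1. Their mean was 0.35 to 0.50 in iFGFR2 and 0.26 to 0.35 in iR2. Of 7 squamous keratinocyte markers, 2 were higher, with -3.29 to -2.22 against -3.59 to -3.38. Their mean was -3.72 to -3.23 in iFGFR2 and -3.99 to -1.99 in iR2. Of 8 luminal markers, 3 were higher, with 2.27 to 3.15 against 1.41 to 3.13, and of 7 basal markers, 1 was higher and 3 were lower. Of 7 macrophage markers, 1 was higher, the arginase gene Arg1. Of 12 early response and heat shock genes, 2 were higher and 1 lower. Among adipocyte, muscle, erythroid and T cell markers, 0 of 6, 1 of 7, 1 of 4 and 1 of 6 were higher, and 1 erythroid marker was lower. The part of these differences in the result for the hypoxia-inducible genes was not tested.

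**Figure D5:**
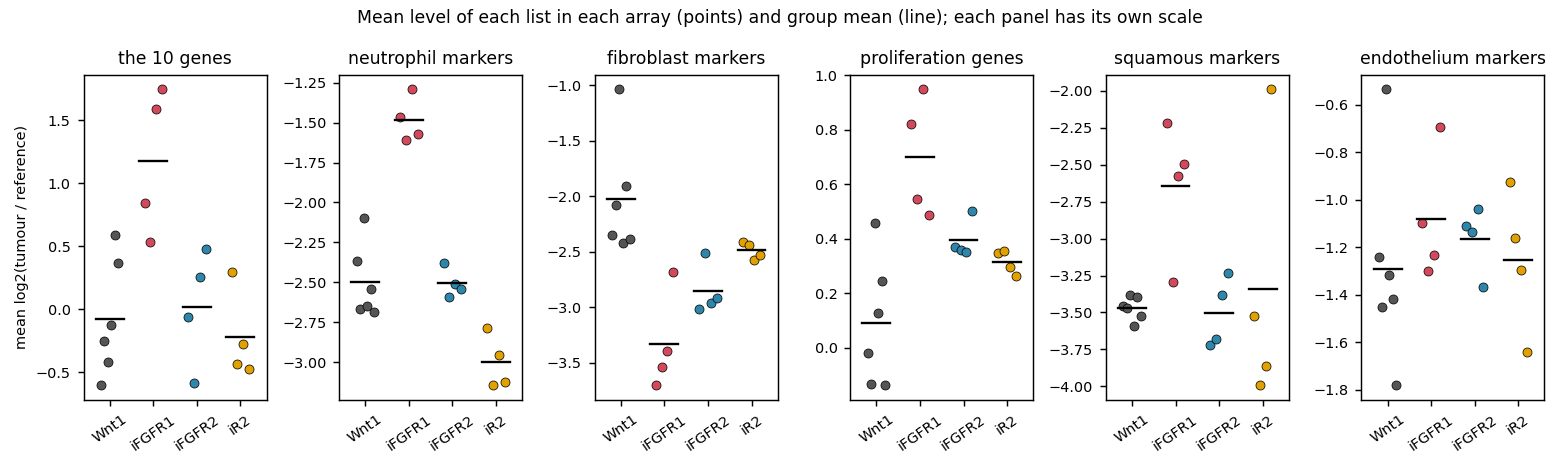
Mean log2 ratio of tumour over reference of the 10 genes and of 5 marker lists in each of the 18 arrays (points) with the group mean (line); each panel has its own axis. The iFGFR1 arrays are the 4 highest for the neutrophil list and all lie above the Wnt1 arrays for the proliferation and squamous lists, while the endothelium list overlaps between groups.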

How the data were processed

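Tumour RNA of 18 arrays (Cy5) was compared with whole-mouse RNA (Cy3). Ratios of the 18 arrays were deposited by the authors in a single table, whose log values were taken as log2 of tumour over reference. Per the labels, tumour RNA was extracted by column kit and reference RNA by TRIZOL, and how the ratios were normalized was not stated there. The table's values ran from -9.03 to 7.57 and column medians from -0.023 to 0.009, with 0 empty cells, so nothing was filled or dropped here. Raw signals were not used, so features near background could not be recognised. Probe sequences were not used either, and binding of near-identical copies (such as processed copies of Pgk1 and Ldha) was not tested. Precision is also limited by the number of arrays.

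Platform symbols were found for 18658 features singly, for 30 in plural and for 3887 not at all, and features with several named no gene. Features of a symbol were averaged. A linear model over all 18 arrays without covariates was fitted in limma 3.58.1 (R 4.3.3, functions lmFit and eBayes), with Benjamini-Hochberg adjustment over 16887 genes within each comparison and a threshold of 0.05, and every adjusted p in the text is from limma. The code was tested on simulated data. The replicate numbers follow the order of the samples and pair nothing. All 10 genes are named. From other lists up to 4 called genes a comparison with the smallest p, 7 HIF components (Hif1a, Epas1, Arnt, Egln1, Egln2, Vhl, Hif1an) and every called paralog are named. Single genes beyond that rule (Ddit4, Car12, Bnip3l, Dlat, Pdhx, Pdp1, Kdr, Flt1, Calcrl, Elane, and Edn1 and Rora in iFGFR1 against Wnt1) were picked after their values were seen. The genes and lists were chosen with earlier results of these data known. Alternatives covered array scaling, weights, the variance prior, features of a gene, a variance filter, the title number as covariate, the arrays in the fit, a threshold of 0.01 and each array left out. Promoter windows are those of RefSeq, and Ndrg1 had none.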

Additional observations from a re-analysis of the deposited data

How the results depend on the processing

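With 11 alternative settings and 18 fits that each left out 1 array, the calls of Car9, Bnip3 and Egln3 in iFGFR1 against Wnt1 held at the 0.05 threshold in all 28 that kept it (highest limma adjusted p = 0.00453, 0.0166 and 0.0491). Adm lost its call in 1 of the 28 (the title number), Slc2a1 in 4, Vegfa in 9, Ldha in 10 and Pdk1 in 12. The count of 8 called genes became 4 with array weights, 3 with the title number as a covariate and 3 at a threshold of 0.01, and 4 to 9 with 1 array left out. In iFGFR2 against Wnt1 the count of 0 became 1 with the title number (Ndrg1, difference -1.37, limma adjusted p = 0.0372). In iFGFR2 against iFGFR1 the count of 3 became 1 with arrays scaled to 1 median absolute deviation, 1 with each feature on its own, 0 with array weights, 0 at a threshold of 0.01, 0 with only the arrays compared and 1 to 4 with 1 array left out. The cause of these changes was not tested, except that the stricter threshold admits fewer genes by construction. Over all genes, the 1415 called higher in iFGFR1 against Wnt1 became 920 to 1681 with 1 array left out and 531 at a threshold of 0.01. Counts of the 10 genes in the other comparisons and in the F test stayed within 1.5 times. The title numbers of Wnt1, iFGFR1 and iFGFR2 overlap only in part, since most iFGFR1 numbers lie above every Wnt1 number. In iFGFR1 against Wnt1 that fit therefore separates number from group only weakly. The numbers of iR2 lie above all others, so in comparisons with iR2 number and group cannot be told apart in that fit. Changes of sign occurred in 55 of 1680 checks of single genes, all in differences that were called in neither fit. With array weights they were Slc2a1 (0.012) and Pgk1 (0.083) in iFGFR2 against Wnt1, Egln3 (-0.078) and Pdk1 (-0.05) in iR2 against Wnt1, and Bnip3 (0.002) and Pgk1 (-0.019) in iR2 against iFGFR2. With scaling to 1 median absolute deviation they were Bnip3 (-0.057) and Car9 (0.09) in iR2 against Wnt1, and with quantile normalization Car9 (0.018) there and Bnip3 (0.014) in iR2 against iFGFR2. With the title number they were Ndrg1 (-0.619) in iFGFR1 against Wnt1, Vegfa (-0.554) and Ldha (-0.037) in iFGFR2 against Wnt1, Bnip3 (-0.971), Egln3 (-2.138) and Pgk1 (-1.27) in iR2 against Wnt1, and Ndrg1 (-1.294) and Pgk1 (-0.846) in iR2 against iFGFR2. With 1 array left out, differences that crossed 0 ranged in iFGFR1 against Wnt1 for Ndrg1 -0.108 to 0.45. In iFGFR2 against Wnt1 the ranges were Vegfa -0.18 to 0.4, Ldha -0.117 to 0.196, Slc2a1 -0.332 to 0.178, Adm -0.334 to 0.021 and Pgk1 -0.329 to 0.357. In iR2 against Wnt1 the ranges were Egln3 -0.205 to 0.282, Pgk1 -0.041 to 0.212, Pdk1 -0.027 to 0.223, Car9 -0.13 to 0.124, Vegfa -0.382 to 0.035 and Bnip3 -0.026 to 0.412. In iR2 against iFGFR2 the ranges were Ndrg1 -0.152 to 0.655, Pgk1 -0.286 to 0.4, Bnip3 -0.394 to 0.01 and Vegfa -0.527 to 0.053. No paired analysis was possible because the replicate numbers were given in the order of the samples and the labels hold none of their own.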
